A study of Mus musculus with 8 samples.

Results

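Foxp3-negative CD4 T cells were gated as a part of the T helper-lineage cells among CD45+ cells sorted from MC38 tumours. Those tumours grow from a mouse colon carcinoma line. The cells were picked as barcodes by their own transcripts. They held at least 2 unique molecular identifiers (UMIs, counts of captured transcripts) of Cd3d, Cd3e and Cd3g together, and at least 1 of Cd4. They also needed no UMI of Foxp3, Cd8a or Cd8b1 and at most 1 UMI of Il2ra and Ikzf2 together. A barcode was left out with 100 or more UMIs of C1qa, C1qb, C1qc, Apoe and Lyz2 per 10000 UMIs, or with more than 2 UMIs of the cycle genes Mki67, Top2a, Birc5 and Cdca3. The rule was met by 175 of 37757 barcodes, with 82 and 69 member cells in LNP-Sirpa replicates 1 and 2 and 7 and 17 in control replicates 1 and 2. All 4 libraries came from wild-type mice bearing MC38 tumours and were prepared in 1 batch. The LNP-Sirpa group had received LNP-Sirpa, which by the title of the series degrades SIRPα, an inhibitory receptor of phagocytes, in tumours, and the control group carries only the word control, with no statement of what it received. The labels do not say that replicates came from separate animals, and the spread behind each p-value is the one between libraries, which may be technical.

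CD4 T cells recognise peptides on MHC class II molecules and help other immune cells through cytokines and surface ligands. CD40 ligand, encoded by Cd40lg, licenses dendritic cells and B cells, and interferon-γ, encoded by Ifng, acts on macrophages and tumour cells. The lineage divides into Th1 cells with T-bet and interferon-γ, Th2 and Th17 cells with their own cytokines, follicular helpers, naive and memory cells that recirculate, and regulatory T cells that express Foxp3.

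The libraries differed in how well they sampled these cells. Member cells held 471921 and 357873 UMIs in LNP-Sirpa replicates 1 and 2, against 31165 and 63595 in control replicates 1 and 2. Their median depth was 4328 and 4474 UMIs per cell in the LNP-Sirpa libraries and 3899 and 3793 in the control libraries. A single UMI in the summed cells therefore stood for 2.12 and 2.79 CPM (counts scaled to the same total in every library) in LNP-Sirpa libraries and for 32.1 and 15.7 CPM in control libraries. Cell names are numbers within a library, so 5001 of the 37757 names occur in more than 1 library and say nothing of shared cells.

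Most member cells carried T cell receptor transcripts, which the rule did not read. At least 1 UMI of a receptor constant gene (Trac, Trbc1 or Trbc2) was found in 78 of 82 and 67 of 69 LNP-Sirpa cells and in 7 of 7 and 17 of 17 control cells. Markers of B cells stood at 50.9 and 27.9 CPM summed over 9 genes in LNP-Sirpa and 160 and 62.9 CPM in control libraries. Those of γδ and NKT cells reached 6.36 and 16.8 CPM in LNP-Sirpa and 32.1 and 0 CPM in control libraries. A list of 9 NK cell markers was higher, at 3780 and 1635 CPM in LNP-Sirpa and 481 and 771 CPM in control libraries, with Gzma (862 UMIs) its highest gene in LNP-Sirpa replicate 1 and Tyrobp, which macrophages also express, in the other 3 libraries. Fibroblast and tumour markers had 318 and 11.2 CPM in LNP-Sirpa and 160 and 31.4 CPM in control libraries. The rule genes themselves were Cd4 at 398 and 380 CPM in LNP-Sirpa and 481 and 771 CPM in control libraries, and Cd3e at 341 and 383 CPM against 545 and 598 CPM, given as description because they chose the cells.

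Macrophage transcripts were present too, and they stood higher in the LNP-Sirpa libraries. A list of 20 macrophage markers that the rule does not read summed to 12674 and 12166 CPM in LNP-Sirpa and to 2952 and 5629 CPM in control member cells, and 0, 0, 6 and 0 of its genes had no UMI, in that order of libraries. More than 100 of these marker UMIs per 10000 were found in 25 of 82 cells (30.5%, 95% Wilson interval 21.6 to 41.1) and 21 of 69 cells (30.4%, 20.8 to 42.1) of the LNP-Sirpa libraries, against 0 of 7 (up to 35.4%) and 1 of 17 cells (5.88%, 1.05 to 27.0) of the control libraries. Such phagocyte-marked cells held 50.5% and 47.8% of the UMIs of LNP-Sirpa members and 0% and 9.30% of those of control members. They were deep, with a median of 7783 and 8452 UMIs in the LNP-Sirpa libraries, where the other member cells had 3868 and 3586. Among Foxp3 regulatory T cells gated alike, 28.6% and 26.1% were marked in LNP-Sirpa and 22.7% and 11.1% in control libraries, a smaller gap, and their sums of the same markers were 13183 and 10735 CPM in LNP-Sirpa and 10352 and 7704 CPM in control libraries. Higher shares of marked cells in LNP-Sirpa were not particular to members. In non-cycling CD8 T cells, 26.3% and 29.7% were marked in LNP-Sirpa and 10.8% and 9.92% in control libraries. The marker sums of CD8 T cells were 11240 and 13323 CPM in LNP-Sirpa and 6588 and 6715 CPM in control libraries. Shares in marked cells, or values without them, are given beside many of the genes named for the comparison of LNP-Sirpa with control.

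**Figure D1:**
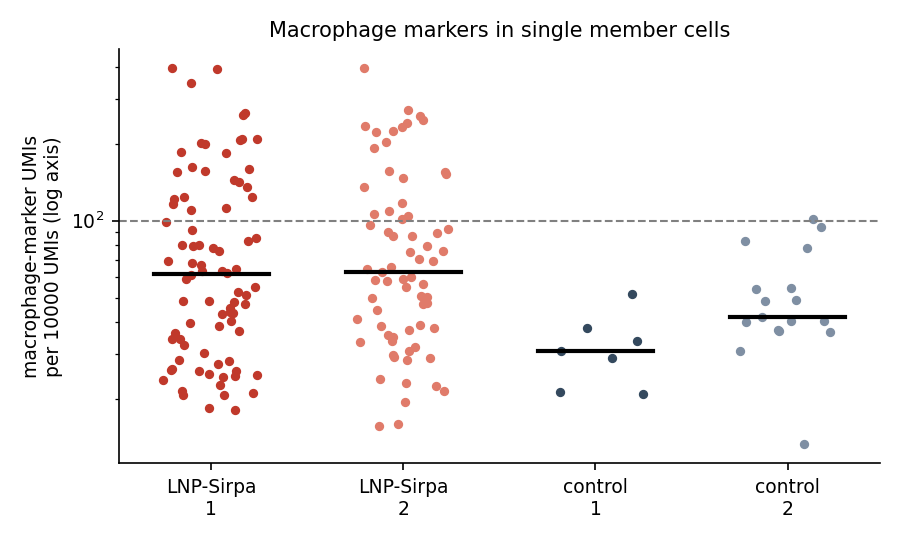
Each point is 1 member cell, and the y axis gives UMIs of 20 macrophage markers per 10000 UMIs on a log axis, with a black bar at each library's median and a dashed line at 100. Cells above the line number 25 and 21 in the LNP-Sirpa libraries, and 0 and 1 in the control libraries.

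Foxp3-negative CD4 T cells made up a larger share of the sorted cells after LNP-Sirpa. They were 0.792% (95% Wilson interval 0.639 to 0.982) and 0.766% (0.606 to 0.968) of barcodes in LNP-Sirpa replicates 1 and 2, against 0.0932% (0.0452 to 0.192) and 0.156% (0.0975 to 0.250) in control replicates 1 and 2. The groups did not overlap, and the means of 0.779% ± 0.0187 in LNP-Sirpa and 0.125% ± 0.0445 in control libraries (SD, n = 2 each) were 6.25-fold apart. An exact two-sided permutation test gave p = 0.3333, the smallest that 2 against 2 libraries allow, so the test cannot pass a threshold of 0.05. Intervals cover counting error only.

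The other T cell gates were larger as well, so the ratios within T cells moved less. Mean shares of barcodes were 2.54-fold higher in LNP-Sirpa for regulatory and 2.80-fold higher for non-cycling CD8 T cells, against 6.25-fold for members. Foxp3 regulatory T cells, gated on Foxp3 in place of its absence and without the Il2ra and Ikzf2 limit, numbered 161 and 88 in LNP-Sirpa and 44 and 45 in control libraries. There were 0.509 and 0.784 Foxp3-negative cells per regulatory cell in LNP-Sirpa libraries, against 0.159 and 0.378 in control libraries, a 2.41-fold difference of the means (exact two-sided permutation p = 0.3333). Per non-cycling CD8 T cell there were 0.124 and 0.141 in LNP-Sirpa libraries and 0.0946 and 0.0482 in control libraries, a 1.85-fold difference with the same exact p = 0.3333. Both ratios were higher in both LNP-Sirpa libraries than in either control library. Per CD8 T cell the groups overlapped with at least 2 Cd4 UMIs (0.0620 and 0.0631 in LNP-Sirpa, 0.0676 and 0.0312 in control libraries), with Il2ra and Ikzf2 at 0, with a phagocyte limit of 50 and after thinning. The difference per regulatory cell was 4.06-fold without control replicate 2, and the groups overlapped when at least 2 Cd4 UMIs were asked for (0.471 and 0.912 in LNP-Sirpa, 0.25 and 0.611 in control libraries).

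**Figure D2:**
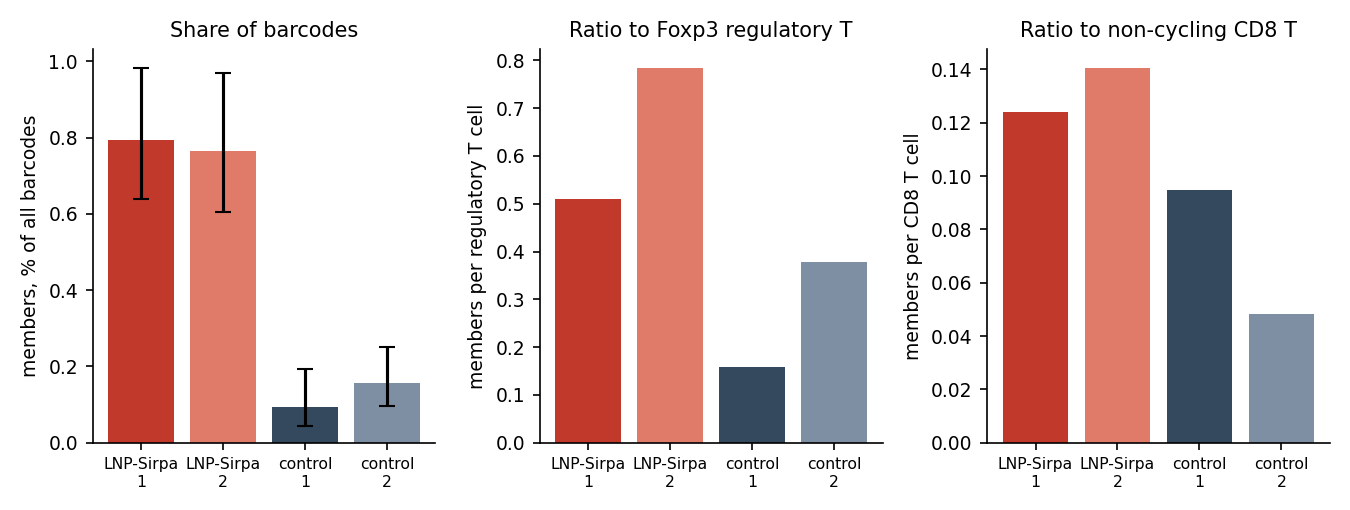
Bars give, for each library, member cells as a percentage of all barcodes (left, with 95% Wilson intervals), per Foxp3 regulatory T cell (middle) and per non-cycling CD8 T cell (right), all from 0. The shares are 0.792% and 0.766% in the LNP-Sirpa libraries and 0.0932% and 0.156% in the control libraries.

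The limit on phagocyte genes took out different fractions in the 2 groups. Of the cells that met every earlier step, it kept 61.2% and 64.0% in LNP-Sirpa and 36.4% and 31.7% in control libraries, and with no such limit the shares were 3.47-fold apart. The Il2ra and Ikzf2 limit, the step before, kept 58.2% and 57.6% in LNP-Sirpa and 46.8% and 57.7% in control libraries. Before that step, 239 and 198 barcodes remained in LNP-Sirpa and 47 and 104 in control libraries. Close to the limits of the rule, Cd4 rested on exactly 1 UMI in 41 and 38 of the LNP-Sirpa members and in 2 and 6 of the control members. Il2ra and Ikzf2 together had the allowed 1 UMI in 28 and 21 LNP-Sirpa members and in 0 and 4 control members, while 13 and 7 LNP-Sirpa cells and 1 and 2 control cells fell outside with 2 UMIs. The phagocyte genes stood between 80 and 100 per 10000 in 6 and 4 LNP-Sirpa members and in no control member, and between 100 and 120 in 3 and 4 LNP-Sirpa and 1 and 4 control cells outside. A single Foxp3 UMI kept out 2 and 1 cells of the LNP-Sirpa libraries and none of the control libraries.

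The member cells bore helper ligands that the other T cell gates carried less often. To compare cells at 1 depth, each was thinned to 2000 UMIs, which kept 158 of the 175 members (137 of 151 LNP-Sirpa and 21 of 24 control cells). Cd40lg had a UMI in 19.0% of thinned members, against 1.86% of regulatory and 0.136% of CD8 T cells and 0.0553% of phagocytes, which should lack it and mark the background of free RNA. Tnfsf8, encoding CD30 ligand, was found in 31.0%, against 1.24%, 4.55% and 2.28% in the same order. Tnfsf11, encoding RANK ligand, was found in 15.8% of members, and Ccl1, a chemokine for CCR8, in 15.2%, against 3.11% and 2.17% of regulatory T cells. These level differences between gates are descriptions without a test.

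Before thinning, Cd40lg was seen in 30 of 82 and 18 of 69 LNP-Sirpa members and in 2 of 7 and 7 of 17 control members. Its level was 121 and 126 CPM in LNP-Sirpa and 96.3 and 220 CPM in control libraries, which overlap. Tnfsf8 was in 35 and 22 of the LNP-Sirpa members and in 0 and 13 of the control members, at 242 and 408 CPM in LNP-Sirpa and 0 and 1132 CPM in control libraries. Control replicate 1 was the lowest and control replicate 2 the highest, so for Tnfsf8, as for Ccl1 (97.5 and 453 CPM in LNP-Sirpa, 96.3 and 1022 CPM in control), the controls spanned the treated values.

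Genes of Th1 cells were seen in many members. Ifng had a UMI in 38.6% of thinned members, 6.83% of regulatory and 47.9% of CD8 T cells and 1.15% of phagocytes. Cxcr6, a homing receptor of effector T cells, was in 39.9%, 13.0% and 42.0% of members, regulatory and CD8 T cells, and Tbx21, encoding T-bet, in 17.1%, 13.4% and 22.8%. At least 1 gene of a Th1 set (Ifng, Tbx21, Cxcr3, Cxcr6 and Il12rb2) was present in 130 of 151 LNP-Sirpa and 21 of 24 control members before thinning. A Th2 cytokine (Il4, Il5 or Il13) was present in 4 of 151 LNP-Sirpa and 0 of 24 control cells, and a follicular helper gene (Cxcr5, Bcl6 or Il21) in 33 of 151 and 6 of 24. The Th1 set holds a factor and receptors besides a cytokine, so these counts are not on equal terms. Gata3, a factor of Th2 and other T cells, was in 19 of 158 thinned members, 74 of 322 regulatory and 90 of 1471 CD8 T cells.

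Cytotoxic and inhibitory genes differed one by one. Nkg7, a granule membrane protein, was found in 56.3% of thinned members, 46.0% of regulatory and 89.7% of CD8 T cells, and Gzmb, encoding granzyme B, in 15.2%, 49.1% and 47.3%. Pdcd1, encoding PD-1, was in 21.5% of members, 11.8% of regulatory and 35.6% of CD8 T cells, and Lag3, another inhibitory receptor, in 10.8%, 7.45% and 8.70%. Genes that tumour regulatory T cells use were rarer in members than in regulatory T cells, with Ctla4 at 34.2% against 69.6%, Izumo1r at 6.96% against 46.3% and Il10 at 3.80% against 33.9%. The last comparison rests on cells that were split by Foxp3, Il2ra and Ikzf2, so it describes the split.

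**Figure D3:**
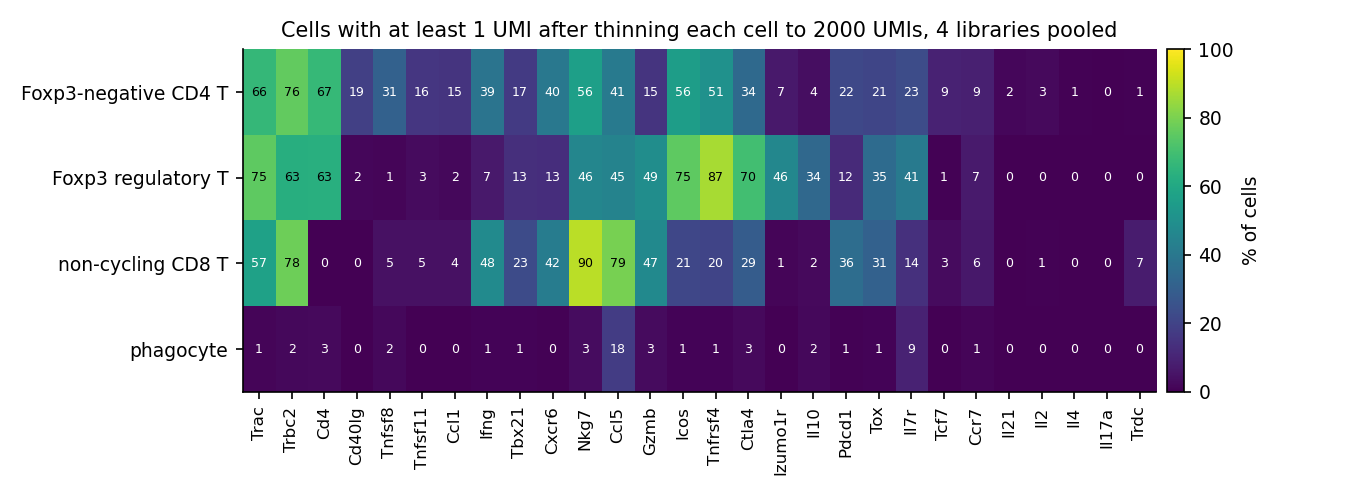
The heat map gives the percentage of cells with at least 1 UMI of each gene after every cell was thinned to 2000 UMIs, with the 4 libraries pooled, for member cells and for the regulatory T, CD8 T and phagocyte gates. Cd40lg, Tnfsf8, Tnfsf11 and Ccl1 each stand higher in member cells (top row) than in the other 3 gates, and Ifng and Cxcr6 are high in member and CD8 T cells.

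Naive and memory genes were uneven between libraries. Tcf7, encoding TCF-1, had a UMI in 21 of 82 and 1 of 69 LNP-Sirpa members and 2 of 7 and 3 of 17 control members. Ccr7, the receptor for lymph node entry, reached 770 CPM in control replicate 1 because a single cell held 22 of its 24 UMIs, and that cell also held 37 of the library's 42 UMIs of Bach2, a repressor that keeps T cells quiescent.

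Between LNP-Sirpa and control, few genes passed the test across all genes. Counts of member cells were summed per library and compared with edgeR's quasi-likelihood test, and 3446 genes outside the rule passed the filter on low counts, of 27405 in the files. At a Benjamini-Hochberg adjusted p under 0.05, 6 genes were higher and 0 lower, 0.174% of genes tested, beside 207 higher and 91 lower at an unadjusted p under 0.05 and 15 higher and 3 lower with DESeq2. The 6 were Arg1, Gzmc, Il1b, AA467197, Ccl6 and H2-Aa. Outside Gzmc, from 80.6% to 89.7% of their LNP-Sirpa UMIs lay in the phagocyte-marked cells. Arg1 is itself 1 of the 20 macrophage markers that define those cells, as are Cd74 and Sirpa, so their share there follows in part from that choice. Without the marked cells no gene passed (0 of 2125 tested by edgeR, with 58 higher and 38 lower at an unadjusted p under 0.05). The count also depended on the libraries used. It grew whenever a single library was left out, each time with the 6 genes among those called.

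Arg1, encoding arginase 1, an enzyme of tumour macrophages that breaks down arginine, had 578 and 614 UMIs in LNP-Sirpa members and 1 and 5 UMIs in control members. That is 1225 and 1716 CPM in LNP-Sirpa against 32.1 and 78.6 CPM in control libraries (log2 fold change 4.59 ± 0.53 SE, edgeR adjusted p = 0.0128). The groups lay far apart in CPM, and 87.0% of the LNP-Sirpa UMIs were in marked cells. In unmarked cells Arg1 stood at 274 and 487 CPM in LNP-Sirpa against 32.1 and 86.7 CPM in control libraries and had a UMI in 28 of 57 and 34 of 48 LNP-Sirpa cells, against 1 of 7 and 4 of 16 control cells. The fold change without marked cells was 2.51 (edgeR adjusted p = 0.705). In the phagocyte gate Arg1 reached 2481 and 6096 CPM in LNP-Sirpa and 1149 and 1377 CPM in control libraries.

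Il1b, encoding the inflammatory cytokine interleukin-1β, had 670 and 1243 CPM in LNP-Sirpa members against 96.3 and 62.9 CPM in control members (log2 3.71 ± 0.57 SE, edgeR adjusted p = 0.0456). Ccl6, a macrophage chemokine, had 1021 and 1104 CPM in LNP-Sirpa against 96.3 and 142 CPM in control members (3.12 ± 0.43, edgeR adjusted p = 0.0313). H2-Aa, a chain of MHC class II, had 1011 and 1087 CPM against 160 and 220 CPM (2.44 ± 0.40, edgeR adjusted p = 0.0456). In all 3 the LNP-Sirpa libraries stood above both controls, which follows in part from picking genes by small p. AA467197 had 629 and 570 CPM in LNP-Sirpa and 96.3 and 31.4 CPM in control members (3.49 ± 0.54, edgeR adjusted p = 0.0456). Without marked cells the log2 fold changes were 1.54 for Il1b, 1.65 for Ccl6, 0.91 for H2-Aa and 1.82 for AA467197.

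Gzmc, encoding granzyme C, a cytotoxic granule protease, rested on single cells. It had 625 and 195 UMIs in LNP-Sirpa members and 2 and 4 in control members (log2 3.89 ± 0.63 SE, edgeR adjusted p = 0.0456), with 75.5% of the LNP-Sirpa UMIs in marked cells. In LNP-Sirpa replicate 1 a single cell held 608 of the UMIs, and in replicate 2 a single cell held 150. The cell with 608 had 37784 UMIs in all, with 692 UMIs of Gzma, 122 of Gzmb and 334 of Gzmd, and also 9 of Ncr1 and 8 of Klre1, receptors of natural killer cells, beside 31 of Trbc1 and 1 of Cd4. Leaving out members with 2 or more UMIs of B, NK or γδ genes turned the fold change to -1.19. Outside the top cell, replicate 1 stood at 39.2 CPM and replicate 2 at 129 CPM, and the controls at 0 and 16.8 CPM.

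**Figure D4:**
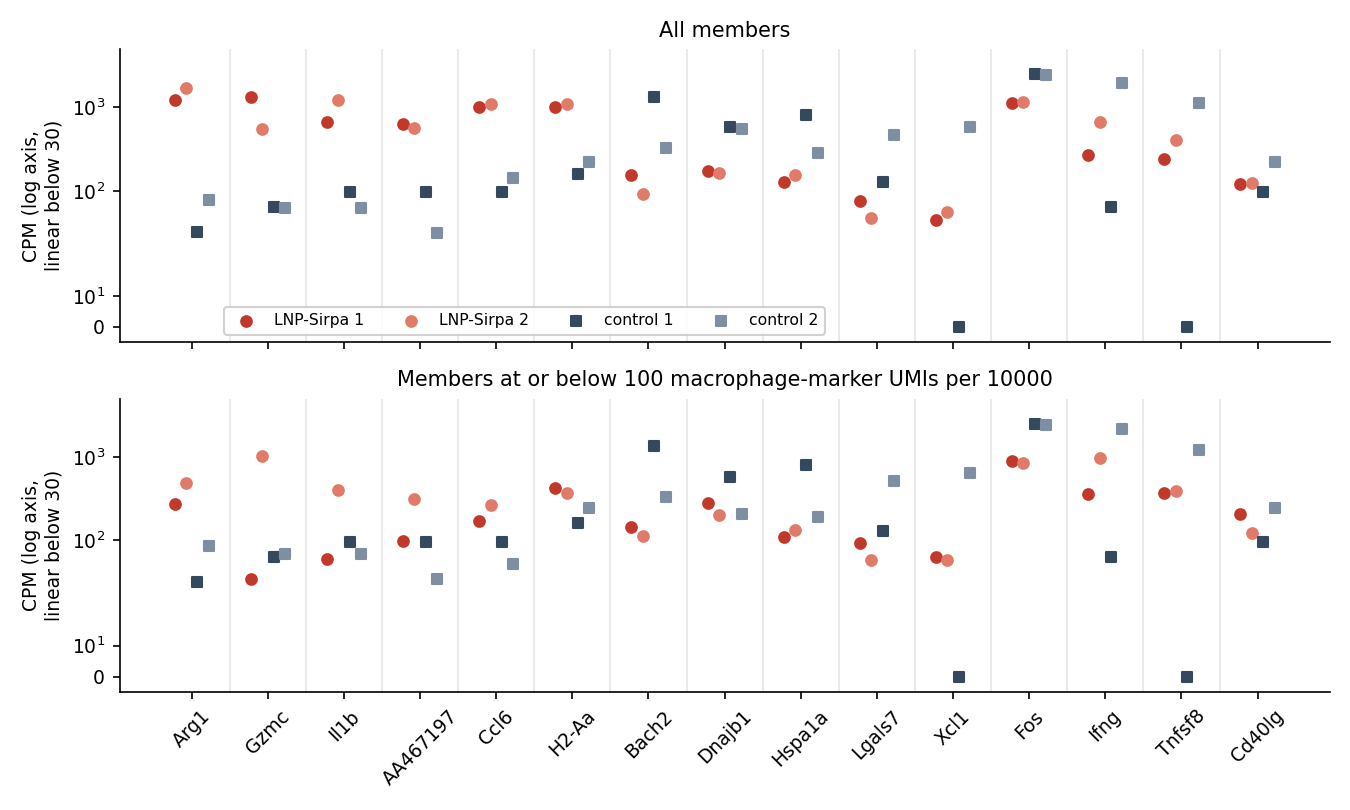
Points give the CPM of named genes in the summed member cells of each library, for all members (top) and for members at or below 100 macrophage-marker UMIs per 10000 (bottom), on a log axis that is linear below 30. The 6 genes at the left passed the test in all members, with Arg1 at 1225 and 1716 CPM in LNP-Sirpa and 32.1 and 78.6 CPM in control libraries, and none passed in the lower panel.

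Other genes with the smallest p among higher values did not pass. Ifitm3, an interferon-induced membrane protein, had 1479 and 771 CPM in LNP-Sirpa and 96.3 and 189 CPM in control members (log2 2.89 ± 0.49 SE, edgeR adjusted p = 0.0617), with 73.7% of its LNP-Sirpa UMIs in marked cells and a log2 value of 1.93 without them. Cd74, the MHC class II invariant chain, had 2322 and 2470 CPM in LNP-Sirpa and 481 and 849 CPM in control members (1.83 ± 0.37, edgeR adjusted p = 0.153), and 0.63 without marked cells. Ccl2, a monocyte chemokine, had 352 and 307 CPM in LNP-Sirpa and 32.1 and 62.9 CPM in control members (2.68 ± 0.54, edgeR adjusted p = 0.153), with 87.7% of its LNP-Sirpa UMIs in marked cells. These stood above both controls in both LNP-Sirpa libraries, which follows in part from picking genes by small p. Tgm2, a transglutaminase, had 120 and 61 UMIs in LNP-Sirpa and none in control members, at least 6.89-fold higher against a floor of 3 UMIs over the control group, and 84.0% of the UMIs were in marked cells.

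Among lower values none passed. Where the groups below do not overlap, that follows in part from picking genes by small p. Dnajb1, a heat-shock co-chaperone, had 172 and 162 CPM in LNP-Sirpa and 578 and 550.4 CPM in control members, with no overlap (log2 -1.72 ± 0.35 SE, edgeR adjusted p = 0.153). Single cells held 83.3% and 65.7% of its UMIs in control replicates 1 and 2, and without marked cells the value was -0.62. Without the top cell of each library, Dnajb1 stood at 133 and 152 CPM in LNP-Sirpa and 125 and 208 CPM in control members, which overlap. Fos, an immediate early transcription factor, had 1140 and 1165 CPM in LNP-Sirpa and 2503 and 2469 CPM in control members (-1.08 ± 0.32, edgeR adjusted p = 0.290), again with no overlap, and -1.50 without marked cells. Bach2 had 155 and 92.2 CPM in LNP-Sirpa and 1348 and 330.2 CPM in control members (-2.63 ± 0.59, edgeR adjusted p = 0.162), and -2.66 without marked cells. Without the cell that held 37 of its UMIs, Bach2 in control replicate 1 was 199 CPM, on 5 UMIs. That is still above both LNP-Sirpa libraries. Xcl1, a chemokine for type 1 dendritic cells, had 0 and 582 CPM in control members on either side of 44.5 and 55.9 CPM in LNP-Sirpa members, where 36.6% of its UMIs were in marked cells. Lgals7, Kcnq5, Hspa1a, Dusp14, Tspan32 and Nosip had log2 values from -2.37 to -1.78 (edgeR adjusted p from 0.165 to 0.290). Without marked cells the values of Lgals7, Kcnq5, Hspa1a, Tspan32 and Nosip ran from -2.17 to -1.53. Of the LNP-Sirpa UMIs of Dusp14, 53.2% were in marked cells. In control replicate 1 a single cell held 21 of 25 UMIs of Hspa1a. Single cells there also held all 4 UMIs of Lgals7, all 2 of Dusp14 and all 4 of Nosip.

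Sirpa, the gene the treatment is directed at, is mainly expressed by phagocytes and had 133 and 129 CPM in LNP-Sirpa and 0 and 62.9 CPM in control members (log2 1.69 ± 0.73 SE, edgeR adjusted p = 0.544), with 74.3% of the LNP-Sirpa UMIs in marked cells. Cd47, which encodes its ligand, had 400.5 and 321 CPM in LNP-Sirpa and 289 and 267 CPM in control members (0.42 ± 0.38, edgeR adjusted p = 0.856), and 0.44 without marked cells. Neither passed, and in the phagocyte gate Sirpa stood at 475 and 339 CPM in LNP-Sirpa and 541 and 550.3 CPM in control libraries.

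Of the effector transcripts below none passed, and some stood apart by group while others overlapped. Ifng had 269 and 668 CPM in LNP-Sirpa and 64.2 and 1981 CPM in control members, where 80 of the 126 UMIs of control replicate 2 came from a single cell. Its direction hung on the controls, at -1.95 without control replicate 1 (edgeR adjusted p = 0.000215) and 3.05 without control replicate 2 (edgeR adjusted p = 0.00756). Ccl5 had 869 and 2023 CPM in LNP-Sirpa and 160 and 723 CPM in control members (log2 1.63 ± 0.58 SE, edgeR adjusted p = 0.435), and Ccl4, an inflammatory chemokine, had 1346 and 1573 CPM against 128 and 802 CPM (1.54 ± 0.53, edgeR adjusted p = 0.409). Ccl5 and Ccl4 were higher in both LNP-Sirpa libraries than in either control, with 38.5% and 26.1% of their LNP-Sirpa UMIs in marked cells. Both passed with no filter on low counts (edgeR adjusted p = 0.000865 and 0.00158) and with the replicate number as a block (0.0244 and 0.0251). Neither passed with DESeq2 or with its size factors. Without control replicate 2, the higher control for both, the log2 values of Ccl5 and Ccl4 were 3.37 and 3.68. Tbx21 had 102 and 123 CPM in LNP-Sirpa and 96.3 and 31.4 CPM in control members, and Tox, a factor of chronic stimulation, 106 and 184 CPM in LNP-Sirpa and 96.3 and 645 CPM in control members.

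Gene groups were described by their counts and medians, next to a median of 0.05 over all genes tested. Medians cover only the genes of a list that passed the filter on low counts, while summed levels cover the whole list. Of the type I interferon response list, 26 of 35 genes in the files were tested. Of these 0 passed in either direction, 26 had a value above 0, and the median was 1.03. Ifi27l2a, an interferon-induced gene, had 2399 and 1123 CPM in LNP-Sirpa and 417 and 881 CPM in control members (log2 1.40 ± 0.46 SE, edgeR adjusted p = 0.366). Isg15, an interferon-induced ubiquitin-like protein, had 1615 and 696 CPM in LNP-Sirpa and 610 and 598 CPM in control members, with 45.2% of its LNP-Sirpa UMIs in marked cells. Summed over the whole list the level was 9624 and 4253 CPM in LNP-Sirpa and 2920 and 3208 CPM in control members, so LNP-Sirpa replicate 1 stood well above replicate 2. The median was 1.38 without marked cells, and 0.44 without LNP-Sirpa replicate 1 with 8 genes tested. A higher sum was not particular to members. In regulatory T cells it was 11337 and 5846 CPM in LNP-Sirpa and 2968 and 3520 CPM in control libraries. In CD8 T cells it was 7017 and 2809 CPM against 1537 and 1224 CPM, and in phagocytes 9714 and 3766 CPM against 1861 and 1645 CPM.

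The interferon-γ response list had 20 of 28 genes tested, of which 0 passed and 18 had values above 0, with a median of 0.87 and of 0.99 without marked cells. Its sum was 5781 and 4353 CPM in LNP-Sirpa and 2310 and 3255 CPM in control members. Regulatory T, CD8 T and phagocyte sums of this list were also higher in both LNP-Sirpa libraries than in either control library. Gbp2, an interferon-induced GTPase, had 135 and 51 UMIs in LNP-Sirpa and none in control members, at least 7.08-fold higher, with 72.0% of the UMIs in marked cells. Cxcl9, a chemokine for CXCR3 made by macrophages, had 458 and 207 CPM in LNP-Sirpa and 32.1 and 15.7 CPM in control members, and 72.8% of its UMIs were in marked cells.

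The naive and central memory list lay on the other side, with 10 of 14 genes tested, 0 passing in either direction, 9 below 0 and a median of -1.07. Its sum was 1407 and 861 CPM in LNP-Sirpa and 4011 and 1698 CPM in control members, and without marked cells the median was -0.82. It was -0.63 without LNP-Sirpa replicate 2 and -0.29 after thinning, with 4 genes tested, and the sum of control replicate 1 includes the cell with 37 UMIs of Bach2 and 22 of Ccr7. Il7r, the interleukin-7 receptor of long-lived T cells, had 195 and 151 CPM in LNP-Sirpa and 321 and 299 CPM in control members. S1pr1, needed to leave tissue, had 14.8 and 8.38 CPM in LNP-Sirpa and 64.2 and 62.9 CPM in control members, but on only 2 and 4 UMIs in the controls.

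In the other T cell lists Gzmc alone was called. The list of follicular helper and progenitor exhausted T cell genes had 8 genes tested, with a median of -0.89. Its sums were 1165 and 1467 CPM in LNP-Sirpa and 1187 and 3302 CPM in control members, which overlap. Its median was 0.79 without control replicate 2, with 1 gene called higher, and -1.27 without control replicate 1, with 3 called lower. The Th1 list had 16 genes tested, with 0 called and a median of 0.15, and the cytotoxic granule list had 10 tested, with Gzmc called and a median of 0.72. Medians were -0.38 for helper activation (18 tested, 0 called), -0.28 for helper cytokines (13 tested, 0 called), -0.10 for inhibitory receptors (11 tested, 0 called) and -0.25 for T cell receptor signalling (22 tested, 0 called). The macrophage list had Arg1 called and all 20 genes above 0, with a median of 1.34, and -0.07 without marked cells with 11 genes tested, a fall that follows from these genes having defined the marked cells. For the monocyte and neutrophil list the median was 3.47 over 5 tested genes, with Il1b called, on sums of 3267 and 2392 CPM in LNP-Sirpa and 417 and 220 CPM in control members.

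**Figure D5:**
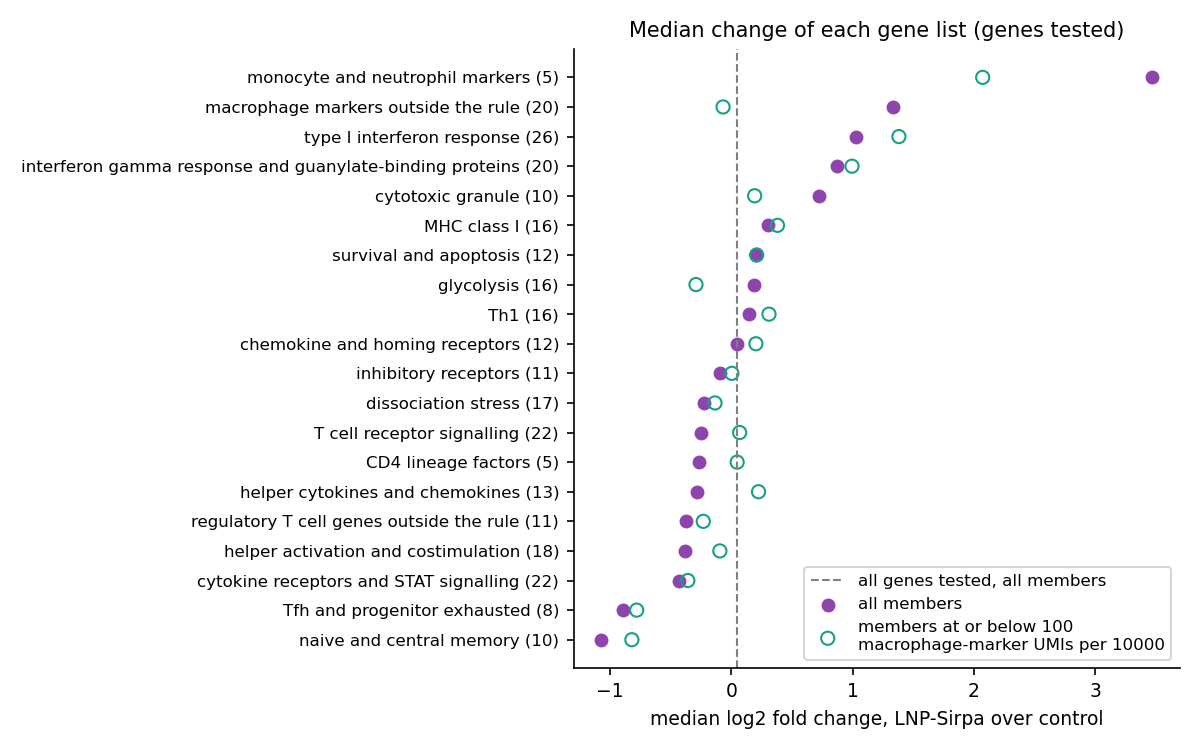
Points give the median log2 fold change of LNP-Sirpa over control for each gene list, over all members (filled) and without phagocyte-marked members (open), with the number of genes tested in all members in brackets and a dashed line at the median of all genes, 0.05. The type I interferon median is 1.03 in all members and 1.38 without marked members, while the macrophage median is 1.34 and -0.07, the last by construction, since the macrophage list defines the marked members.

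The change in member cells was also set against the change in the other T cell gates of the same libraries, as the interaction of treatment and gate in edgeR over 12 sums with the library as a block. Against regulatory T cells 3 of 7459 genes differed (0.0402%), all higher in the member cells, namely Il1b, Fn1 and Mef2d. Against CD8 T cells 2 of 7459 differed (0.0268%), Fn1 and Cma1. Without control replicate 2 both counts were 33. Il1b was at 645 and 591 CPM in LNP-Sirpa and 373 and 478 CPM in control regulatory T cells, a smaller contrast than in members (difference of log2 changes 3.29 ± 0.53 SE, edgeR adjusted p = 0.00135). Fn1, encoding fibronectin, had 265 and 559 CPM in LNP-Sirpa and 32.1 and 47.2 CPM in control members, with 87.7% of its LNP-Sirpa UMIs in marked cells. Regulatory T cells held Fn1 at 290 and 544 CPM in LNP-Sirpa and 493 and 186 CPM in control libraries, which overlap.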

How the data were processed

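Droplet single-cell RNA was measured in 2 LNP-Sirpa and 2 control cDNA libraries, and the oligo libraries were not analysed here. Per the submitters' processing notes, STAR 2.5.1b and GRCm39 were used, and the file headers name PISA 1.0. The deposited values are UMI counts, as whole numbers, of each gene in each barcode. The cell-calling rule is not given in the sources used here. The libraries held from 68654004 to 90789729 UMIs. The members and gene lists were chosen with earlier results of these data known. Counts of the gated cells were summed per library and tested with edgeR 4.0.16 (TMM, filterByExpr, robust quasi-likelihood F test) in R 4.3.3, adjusted over all genes by Benjamini-Hochberg, with genes of the gating rule left out of calls. Shares were tested by exact permutation (scipy 1.17.1). Named genes had a mean of at least 50 CPM: those past the threshold with the largest changes, or the 10 with the smallest p in a direction where fewer than 10 passed, up to 4 called genes per list, Sirpa and Cd47. Other genes printed as levels or as list examples were picked after their values were seen. Data simulated from the same sums held 200 changed genes, at log2 changes of 1, 2 or 3. Of these, 175, 189 and 199 passed the filter, and 0%, 61.4% and 85.9% of those were recovered, in that order. There were 0, 12 and 10 false calls beside 0, 116 and 171 recovered genes. For the interaction, shares are again of the changed genes that passed the filter. Against regulatory T cells, 26.7% and 54.9% were recovered at log2 changes of 2 and 3, with 6 and 8 false calls. Against CD8 T cells these were 32.3% and 64.2%, with 9 and 14 false calls. Scrublet in scanpy 1.11.5 marked 1, 0, 0 and 0 barcodes and so had not worked. As an alternative, the 5% with the highest scores were left out, among them 8 and 2 LNP-Sirpa members and no control member. Further alternatives were DESeq2 1.42.0, its size factors, no filter on low counts, the replicate number as a block, other gate limits, thinning to 2000 UMIs, subtraction of an estimated phagocyte share and each library left out. The phagocyte gene limit of 200 per 10000 UMIs, the removal of that limit and the removal of phagocyte-marked cells were added after the data were seen. Some genes are not reported here.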

Additional observations from a re-analysis of the deposited data

Results flagged for a closer look

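The change after LNP-Sirpa in Foxp3-negative CD4 T cells differed from that in another T cell gate for a few genes, by the interaction test in edgeR. Against Foxp3 regulatory T cells these were Il1b (adjusted p = 0.00135), Mef2d (adjusted p = 0.00771) and Fn1 (adjusted p = 0.0415). Against non-cycling CD8 T cells they were Fn1 and Cma1 (adjusted p = 0.0442 for both). Mef2d, a transcription factor, had 65 and 41 UMIs in LNP-Sirpa members and none in control members, at least 4.03-fold higher, while regulatory T cells held it at 92.4 and 78.9 CPM in LNP-Sirpa and 110 and 152 CPM in control libraries. Cma1, a mast cell chymase, had 191 and 1 UMIs in LNP-Sirpa members and none in control members, and a single cell held 159 of them. Without phagocyte-marked cells in any of the gates, none of the 4 genes passed. Mef2d was then at 133 and 91.0 CPM in LNP-Sirpa and 0 CPM in both control libraries, near its level in all members, with an edgeR adjusted p of 0.103, and 54.7% of its LNP-Sirpa UMIs were in marked cells. Il1b differed from regulatory T cells by 0.94 on the log2 scale (edgeR adjusted p = 0.967) and Fn1 by 1.64 (edgeR adjusted p = 0.840).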

How the results depend on the processing

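The share of Foxp3-negative CD4 T cells stayed higher in LNP-Sirpa under every alternative run, from 4.42-fold with at least 2 Cd4 UMIs to 6.06-fold without other lineages, 3.47-fold with no phagocyte limit, and 4.99 to 8.36-fold when 1 library was left out. The ratio to regulatory T cells ran from 1.61 to 4.06-fold. The count of genes passing in members, 6, was 2 with DESeq2 size factors, 18 with DESeq2 (499 genes had an adjusted p), 70 with no filter on low counts, 1 with a phagocyte limit of 50, without other lineages or with the cell filter and doublet scores, and 0 with at least 2 Cd4 UMIs, after thinning, after subtraction of a phagocyte share, without phagocyte-marked members and with a phagocyte limit of 200. At an unadjusted p under 0.05 those 5 settings gave 96, 37, 94, 58 and 239 higher and 60, 25, 49, 38 and 171 lower genes by edgeR, in that order. The count ranged from 8 to 89 when 1 library was left out, where omitting LNP-Sirpa replicate 2 gave 26, omitting control replicate 1 gave 89 and omitting control replicate 2 gave 78, each time with the 6 genes among them. The labels do not pair the replicate numbers, and same-numbered libraries deviated together with a correlation of 0.08 over 3456 genes. With the replicate number as a block 43 genes passed, 39 higher and 4 lower, Ccl4 and Ccl5 among the higher.

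Genes differing from regulatory T cells numbered 3, and 15 with no filter, 6 with at least 2 Cd4 UMIs, 1 without marked cells (Ccl4, log2 2.85, edgeR adjusted p = 0.00536) and 4 to 33 with 1 library left out. Genes differing from CD8 T cells numbered 2, and 15 with no filter, 4 with at least 2 Cd4 UMIs, 1 to 33 with 1 library left out, and 0 with DESeq2 size factors, a phagocyte limit of 50, Il2ra and Ikzf2 at 0 or without marked cells, where edgeR at an unadjusted p under 0.05 gave 299, 298, 421 and 222 higher and 120, 98, 77 and 64 lower. The cause was not tested for any of these moves. Signs turned for Gzmc without other lineages (-1.19) and after thinning (-3.85), and for Il1b (-0.52) and Sirpa (-0.27) with a phagocyte limit of 200. With 1 library left out Dusp14 ran from -2.70 to 0.41 and Xcl1 from -3.42 to 6.86, the last against a control library with no UMI, so its size means nothing. Of the other values of named genes, 256 kept direction and side, 39 came to pass and 44 no longer passed. Without control replicate 2 the median of all genes was 0.41 and 16 of 27 list medians moved. Depth limits the controls, whose 24 cells make 1 UMI worth 32.1 or 15.7 CPM, and in simulated sums of the members no change of log2 1 was recovered.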

Other observations

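Single cells set several levels in the LNP-Sirpa members. In replicate 1 the cell with 159 UMIs of Cma1 also had 115 of Mcpt4 and 24543 UMIs in all, and another cell held 258 of S100a9 and 145 of S100a8, a pair of neutrophil and monocyte genes, in 15174 UMIs. The 3 cells with the most UMIs of Cma1, Gzmc and S100a9 in replicate 1 were all phagocyte-marked, at 202, 210 and 206 marker UMIs per 10000. The members with the most Ifng differed in granzymes. In LNP-Sirpa replicate 1 that cell had 39 UMIs of Ifng and none of Gzmd or Gzme, in LNP-Sirpa replicate 2 it had 34 of Ifng, 26 of Gzmd and 12 of Gzme, and in control replicate 2 it had 80 of Ifng, 39 of Gzmd and 38 of Gzme. All 3 carried Trac and Trbc2 transcripts and lay below 100 macrophage-marker UMIs per 10000. Variable segments of the receptor β chain were read in only 6 and 10 LNP-Sirpa and 2 and 0 control members, too few to compare usage.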
